A study of Mus musculus with 6 samples.

Results

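Oxidative phosphorylation is carried out by protein complexes I to V of the inner mitochondrial membrane, and the genes of their subunits were examined in murine acute myeloid leukemia (AML) cells from mice treated with AG636, an inhibitor of dihydroorotate dehydrogenase (DHODH), or with vehicle. Members were the protein-coding genes of the count table whose GENCODE symbols name a subunit of complex I (Ndufa, Ndufb, Ndufc, Ndufs, Ndufv), II (Sdha to Sdhd), III (Uqcr genes and Cyc1), IV (Cox4 to Cox8) or V (Atp5), or a mitochondrially encoded subunit (mt-Nd, mt-Co, mt-Cytb, mt-Atp). This gave 99 of 54838 genes, of which 86 are nuclear and 13 lie on the mitochondrial genome. A few members picked up by name are not core subunits: Ndufa4 is now counted with complex IV, Cox7a2l joins complexes into supercomplexes, and Atp5s is a coupling factor.

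Electrons from NADH enter at complex I and those from succinate at complex II. Both pass to ubiquinone, then through complex III and cytochrome c to complex IV, which reduces oxygen, and the proton gradient built on the way drives ATP synthesis by complex V. DHODH, the target of AG636, sits in the same membrane and hands its electrons to the same ubiquinone pool while it makes orotate for pyrimidine synthesis. Only complex II is made entirely from nuclear genes. The mitochondrial genome is transcribed from both strands as long precursors that are cut at the tRNAs into rRNAs and mRNAs. The rRNA genes lie nearest to the start of heavy-strand transcription, and mt-Nd6 is the subunit gene read from the light strand.

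The model, I1DN, is an AML of C57BL/6 background made by the authors from fetal liver stem and progenitor cells carrying IDH1R132H, DNMT3AR882H and NrasG12D, and every sample carried all 3 alleles. Cryopreserved leukemia cells of a moribund mouse were transplanted into sublethally irradiated Ptprca recipients, so all mice bore 1 established leukemia. There were 3 mice given vehicle and 3 given AG636 by oral gavage b.i.d. at 100 mg/kg body weight. The sources differ on the time on treatment (1 day or 4 days) and on the sorted cells (cKit+CD11b- or cKit-high CD11b-low). The labels name bone marrow and spleen as the source without assigning a tissue to a sample. Replicates are numbered in the labels and were taken as separate mice. The labels do not say so for each sample, so p-values measure the spread between these samples, and no batch is given.

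Libraries were made with a kit that copies the end of polyadenylated RNA, so a count is the number of reads near a transcript's end and levels of different genes were not compared. Totals were between 4634963 and 7906589 counts per sample. Of 11092 genes with enough counts, 1222 were called lower with AG636 and 1146 higher (edgeR's quasi-likelihood test, Benjamini-Hochberg adjusted p under 0.05), and the median log2 fold change was 0.03. Of the genes of the sort markers, Kit, which encodes cKit, differed by 0.15 on the log2 scale without passing the test, and Itgam, which encodes CD11b, rose by 1.21 (adjusted p = 0.0219). Of other genes of immature cells, Cd34 and Myb differed by 0.45 and 0.03 without passing, and Flt3, at means of 0.631 and 2.93 CPM, had too few counts to test. Summed over 9 neutrophil genes, markers were at 1036 to 2367 CPM (counts divided by the TMM-scaled library size) with vehicle and 2888 to 5888 with AG636, with 7 called higher. Summed over 9 monocyte genes, they were at 69.9 to 106 and 170 to 239, with 3 called higher. Erythroid markers, 8 genes, were at 1822 to 4942 and 1981 to 3478, with 2 called lower, and no gene of these lists was at 0 in all samples. Megakaryocyte and platelet markers, 5 genes, were at 774 to 1207 and 1045 to 1699, with 2 called higher. Of B cell and of T or NK cell markers 1 gene each had enough counts to test, and 0 were called. The part of these cells in the results below was not tested, and in bulk RNA fewer cells of a type and less RNA per cell cannot be told apart.

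Among mitochondrially encoded subunits, mt-Nd4, mt-Nd5 and mt-Cytb at the far end of the heavy strand fell with AG636. Near its start, mt-Nd1, mt-Nd2 and mt-Co1 did not pass the test, and the rRNAs rose. In between, mt-Atp8 and mt-Atp6 fell while mt-Co2 and mt-Co3 did not pass. This grouping by position was made after the values were seen. Of 13 members, 11 had enough counts to test. Of these, 5 fell (45.5%, beside 11.0% of all genes tested) and 1 rose (9.09%, beside 10.3%). The members that fell were mt-Cytb, mt-Nd4, mt-Atp6, mt-Atp8 and mt-Nd5, and mt-Nd6 rose. The median log2 fold change over the 11 was -0.37.

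**Figure D1:**
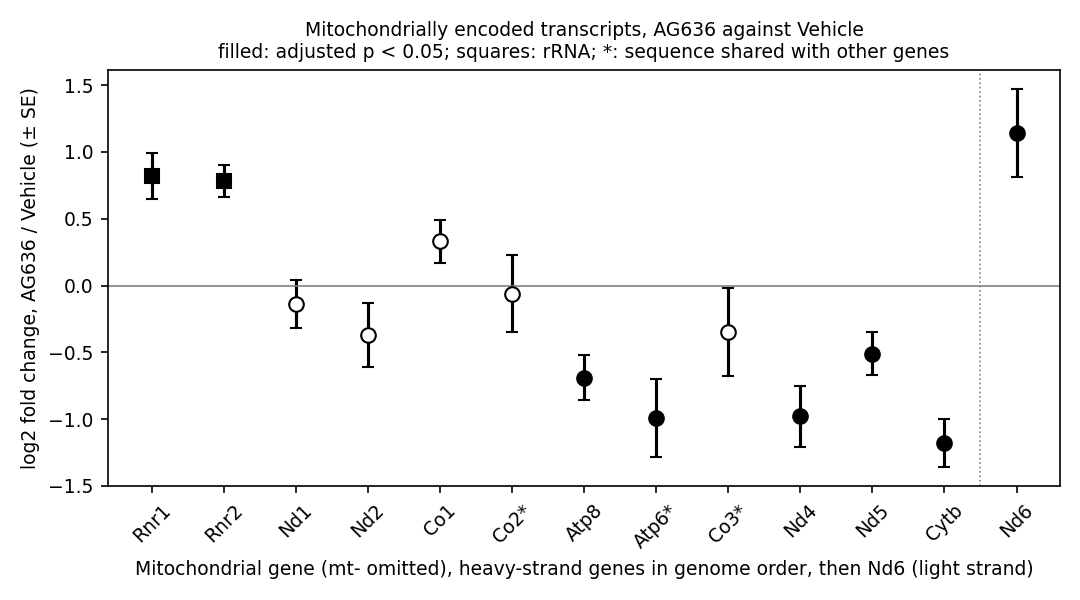
Log2 fold change of AG636 over Vehicle with its SE (y axis) for the 2 mitochondrial rRNAs (squares) and the 11 tested subunit genes (circles). Genes are in genome order along the heavy strand, followed by mt-Nd6 of the light strand. Filled symbols passed an adjusted p of 0.05 and asterisks mark mRNAs whose sequence is shared with nuclear copies. The rRNAs sit near 0.8, mt-Nd1 to mt-Co1 lie from -0.37 to 0.33 and mt-Nd4 to mt-Cytb from -1.18 to -0.51.

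The annotated ends of 6 heavy-strand genes are shown. The polyadenylated RNA that such libraries read from may run on past them, which could not be checked. The letters were taken from the GENCODE transcripts of GRCm38, on the heavy-strand transcript (+). Capitals mark the stop codon or, where the gene holds only its first base and the poly(A) tail supplies the rest, that base. The annotations of mt-Nd4 and mt-Cytb end in such a single base. Those of the other 4, among them mt-Nd5, which also fell, end in a full codon. Whether the ends bear on the counts was not tested.
mt-Nd1, chrM:3663-3707: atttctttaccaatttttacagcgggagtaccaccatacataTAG
mt-Nd2, chrM:4907-4951: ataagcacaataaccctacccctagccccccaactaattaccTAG
mt-Co1, chrM:6828-6872: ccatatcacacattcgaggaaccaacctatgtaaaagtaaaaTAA
mt-Nd4, chrM:11500-11544: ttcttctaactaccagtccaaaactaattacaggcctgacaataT
mt-Nd5, chrM:13521-13565: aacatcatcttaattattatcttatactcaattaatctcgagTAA
mt-Cytb, chrM:15244-15288: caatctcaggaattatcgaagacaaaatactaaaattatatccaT

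The mt-Cytb gene (ENSMUSG00000064370, chrM:14145-15288), which encodes the catalytic cytochrome b of complex III and is the last mRNA of the heavy strand, was at 9554, 6080 and 6418 CPM with vehicle and at 3034, 3893 and 2810 with AG636. All treated mice were below all controls. The log2 fold change was -1.18 (SE 0.18, adjusted p = 0.00411, edgeR), a fold of 0.442, and it passed the threshold with each of the 6 mice left out in turn. For mt-Nd4 (ENSMUSG00000064363, chrM:10167-11544), a membrane subunit of the proton-pumping arm of complex I, the values were 11303, 7425 and 5843 with vehicle and 4337, 4939 and 3155 with AG636. These groups did not overlap either, although the vehicle mice spread widely. Its log2 fold change was -0.98 (SE 0.23, adjusted p = 0.0166), and the adjusted p was 0.0505 without AG636 1 and 0.0614 without AG636 3.

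A further subunit of the proton-pumping arm, mt-Nd5, was at 725, 570 and 512 CPM with vehicle and 469, 455 and 346 with AG636, a log2 fold change of -0.51 (SE 0.16, adjusted p = 0.0471). The groups lay side by side without overlap, and the call was lost without any 1 of Vehicle 1, Vehicle 2 and AG636 1 to 3 (adjusted p from 0.0531 to 0.155) and with library size alone (0.0728). Between the near and far ends lies mt-Atp8, a small subunit of the membrane part of complex V, at 182, 139 and 124 CPM with vehicle and 105, 92.4 and 77.4 with AG636. It fell by 0.69 on the log2 scale (SE 0.17, adjusted p = 0.0205), and the adjusted p was 0.0537, 0.0504 and 0.0789 without Vehicle 1, Vehicle 2 and AG636 3. The exon of mt-Atp8 overlaps that of mt-Atp6 on the same strand, so the calls of these genes need not be independent.

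Near the start of the heavy strand, mt-Nd1, which lies close to the ubiquinone site of complex I, was at 10806, 7840 and 6972 CPM with vehicle and 8783, 8510 and 5995 with AG636. The groups overlapped, with a log2 fold change of -0.14 (SE 0.18, adjusted p = 0.613). The next gene, mt-Nd2 of complex I, was at 1744, 1188 and 933 and at 1237, 1030 and 715 (log2 fold change -0.37, SE 0.24, adjusted p = 0.282). Without a filter on low counts mt-Nd2 was called lower (-0.4, adjusted p = 0.0167, edgeR). For mt-Co1, the subunit of complex IV that binds oxygen, levels were 5978, 4930 and 4069 with vehicle and 5897, 7619 and 5368 with AG636. Here the treated mice tended to the upper end of the controls, with a log2 fold change of 0.33 (SE 0.16, adjusted p = 0.159).

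Both mitochondrial rRNAs, which lie ahead of mt-Nd1 and are no members, rose. The 12S rRNA, mt-Rnr1, was at 2420, 2309 and 1804 CPM with vehicle and 4869, 3384 and 3320 with AG636 (log2 fold change 0.82, SE 0.17, adjusted p = 0.0102). The 16S rRNA, mt-Rnr2, was at 4288, 3890 and 3588 and at 7924, 6329 and 5936 (log2 fold change 0.78, SE 0.12, adjusted p = 0.00462). Every treated mouse was above every control in both, and both calls were kept with each mouse left out. These counts are of rRNA that entered an oligo(dT)-primed library, which need not follow total rRNA.

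**Figure D2:**
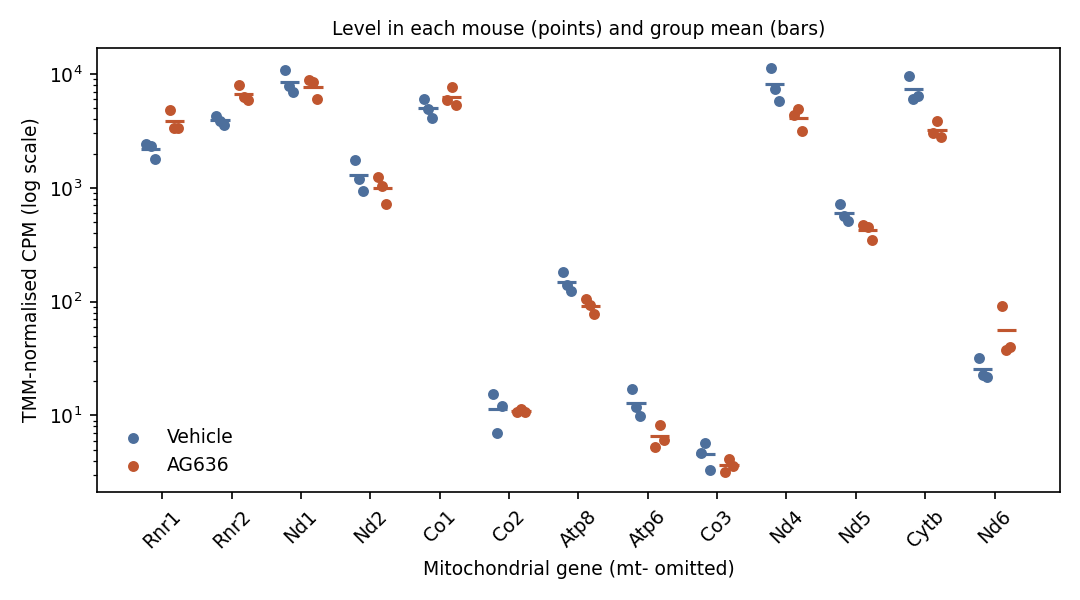
Normalised CPM on a log scale (y axis) of each mitochondrial rRNA and tested subunit gene in the 3 vehicle mice and the 3 AG636 mice (points), with bars at the group means. The groups separate upward for Rnr1, Rnr2 and Nd6, separate downward for Atp8, Atp6, Nd4, Nd5 and Cytb, and overlap for the others.

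The same contrast appeared inside each library, where scaling plays no part. The grouping into near and far genes was made after the values were seen, so the ratios are given as a description. Counts of mt-Nd4, mt-Nd5 and mt-Cytb over those of mt-Nd1, mt-Nd2 and mt-Co1 were 1.16, 1.01 and 1.07 with vehicle, and 0.493, 0.541 and 0.522 with AG636. The means were 1.08 ± 0.079 and 0.519 ± 0.0245 (SD, n = 3), with a wide gap between the groups and little spread within them. These sums are carried by the genes with most counts, and mt-Nd5 and mt-Nd2 had far fewer than the rest. The log2 fold changes of mt-Nd5 and mt-Nd2, -0.51 (SE 0.16) and -0.37 (SE 0.24), lay close together, so this pair shows little of the contrast. For mt-Nd4 over mt-Nd1 alone, a pair whose last 200 bases are not shared with other genes, the ratios were 1.05, 0.947 and 0.838 and then 0.494, 0.580 and 0.526. For mt-Cytb over mt-Nd1 they were 0.884, 0.776 and 0.920 and then 0.345, 0.457 and 0.469, and neither pair overlapped between groups. With each mouse left out in turn, the difference of the 3-gene ratio on the log2 scale lay between -1.10 and -1.0. The genes were grouped on the values of these same mice, so this range is a description too.

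Over both ends together the mitochondrially encoded members took 3.84%, 2.73% and 2.45% of all counts with vehicle and 2.44%, 2.73% and 1.93% with AG636. These shares overlapped between the groups. Counts of the members over those of the rRNAs were 6.02, 4.55 and 4.62 with vehicle and 1.87, 2.74 and 2.0 with AG636, and here the groups lay apart. The near genes alone took 1.18% to 1.76% with vehicle and 1.26% to 1.76% with AG636, and the far genes 1.26% to 2.05% and 0.656% to 0.953%.

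**Figure D3:**
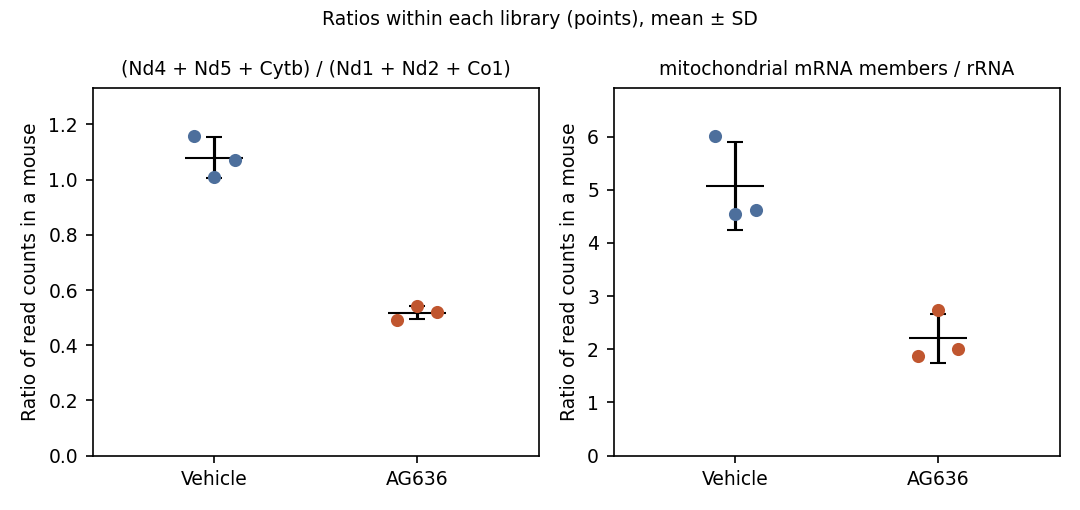
Ratios of read counts within each library (y axes) for the far over the near heavy-strand mRNAs (left) and for all mitochondrially encoded members over the mitochondrial rRNAs (right). Points are mice and bars are the mean ± SD of 3; in both panels all AG636 mice lie below all vehicle mice.

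On the light strand, mt-Nd6 (ENSMUSG00000064368, chrM:13552-14070), a membrane subunit of complex I, was at 32.1, 22.5 and 21.7 CPM with vehicle and 91.1, 37.5 and 39.6 with AG636. AG636 1 stood far above the others. The log2 fold change was 1.14 (SE 0.33, adjusted p = 0.0353), and 0.60 (adjusted p = 0.104) without AG636 1. The call was also lost without Vehicle 2 (adjusted p = 0.124) or Vehicle 3 (0.0885). Its exon overlaps the end of mt-Nd5 on the opposite strand, over chrM:13552-13565 alone. The sources used here do not state whether counting used strand. Without it, reads in that stretch, or of RNA that runs past an annotated end, cannot be told apart. The count of mt-Nd6 over mt-Nd5 was 0.0443, 0.0395 and 0.0424 with vehicle and 0.194, 0.0825 and 0.115 with AG636.

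For 5 mitochondrially encoded members the counts are uncertain, because over 95% of their 75-base windows are identical to annotated nuclear copies and reads that match several places may have been split or dropped. These were mt-Atp6 (99.5% of windows, shared with Gm10925), mt-Co2 (99.5%), mt-Co3 (99.9%), mt-Nd3 (97.8%) and mt-Nd4l (98.7%). All had few counts. The complex V subunit mt-Atp6 was at 17.1, 11.9 and 9.82 CPM with vehicle and 5.31, 8.25 and 6.04 with AG636 (log2 fold change -0.99, SE 0.29, adjusted p = 0.0364), and lost its call without Vehicle 1 (0.121), Vehicle 2 (0.0771), AG636 1 (0.112) or AG636 3 (0.114). The complex IV subunits mt-Co2 and mt-Co3 had log2 fold changes of -0.06 and -0.35 and overlapping groups. With 24 and 3 counts in all, mt-Nd3 and mt-Nd4l were not tested. Leaving the 5 out, an alternative chosen after the data were seen, 4 of 8 fell and 1 rose. Of the mt-Nd4 windows, 61.5% were shared, but none in its last 200 bases, and for mt-Co1 the share was 39.8%, including every window of its last 200 bases. The copies that share them had 448 counts beside 183843 for mt-Co1, while Gm10925 had 3812 beside 331 for mt-Atp6. Of the mt-Nd2 windows 5.7% were shared, with 43.7% of those in its last 200 bases, and the copy had 122 counts. For mt-Nd5 the share was 1.7%, with none in its last 200 bases. No window of mt-Nd1, mt-Cytb, mt-Atp8, mt-Nd6 or the rRNAs was shared.

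The nuclear subunit genes were called lower about as often as genes at large. Of 86, 78 were tested, 8 fell (10.3%, beside 11.0% of all genes tested) and 0 rose (beside 10.3%). Direction was uneven: 62 of the 78 had negative log2 fold changes, or 79.5% beside 47.7% of all genes, and this was 46 of 78 when counts were scaled by library size alone, where 40.2% of all genes were negative. The median was -0.13, beside 0.03. At an unadjusted p under 0.05, 20 were lower and 2 higher, beside 18.4% and 18.7% of all genes. DESeq2 and limma-voom each called 8 lower and 0 higher, beside 12.0% and 10.5% of all genes with DESeq2 and 11.1% and 10.3% with limma-voom. Groups did not overlap in 25 members with lower levels (32.1%, beside 20.6% of all genes) and in 3 with higher ones (beside 20.5% of all genes). Nuclear members together took 2.02% to 2.09% of counts with vehicle and 1.88% to 2.06% with AG636.

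**Figure D4:**
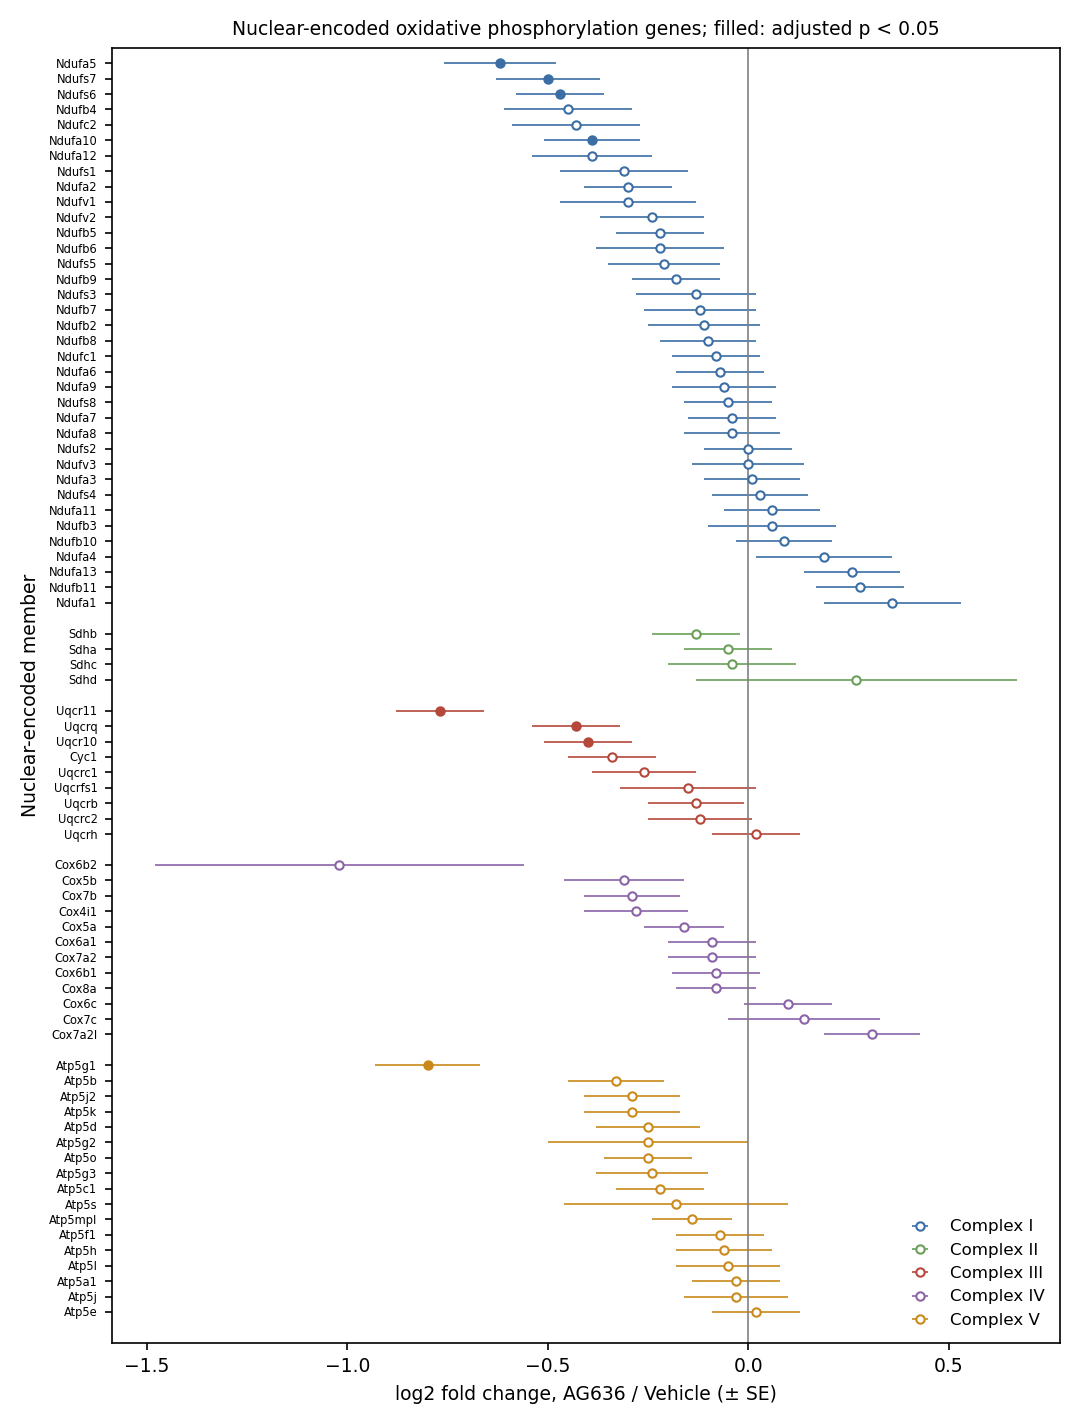
Log2 fold change of AG636 over Vehicle with its SE (x axis) for the 78 tested nuclear members (y axis), grouped and coloured by complex. Filled points passed an adjusted p of 0.05; these are 4 of complex I, 3 of complex III and 1 of complex V, all lower, and most other members lie between -0.45 and 0.36.

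Among nuclear members by complex, 4 of 36 tested members of complex I fell (11.1%) and 0 of 4 of complex II. For complex III 3 of 9 fell (33.3%), for complex IV 0 of 12 and for complex V 1 of 17 (5.88%). Of all genes tested 11.0% fell, so the share of complex I was near it and that of complex V below it. No nuclear member rose in any complex, beside 10.3% of all genes. The medians were -0.11, -0.05, -0.26, -0.09 and -0.22 in that order. Counting at an unadjusted p under 0.05, 0 members of complex II and 3 of complex IV were lower, beside 18.4% of all genes. DESeq2 and limma-voom called none of either. With library size alone the medians of complexes II and IV were 0.04 and 0.00. Differences between complexes were not tested.

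In complex III the 3 nuclear genes that fell, beside mt-Cytb, encode small subunits without a redox group. Uqcr11 (ENSMUSG00000020163, chr10:80402997-80406830) was at 335, 303 and 298 CPM with vehicle and 198, 174 and 178 with AG636. The groups lay far apart, with a log2 fold change of -0.77 (SE 0.11, adjusted p = 0.00397), and the call was kept with each mouse left out. Uqcrq went from 372, 343 and 362 to 280, 275 and 245 (log2 fold change -0.43, SE 0.11, adjusted p = 0.0225), and Uqcr10 from 291, 307 and 278 to 225, 212 and 228 (-0.40, SE 0.11, adjusted p = 0.0268). Both had groups apart. Cyc1, the cytochrome c1 that passes electrons to cytochrome c, had levels of 133, 128 and 129 and of 107, 105 and 96.3, also apart, but an adjusted p of 0.0587. The core protein Uqcrc2 and the hinge protein Uqcrh had log2 fold changes of -0.12 and 0.02 and overlapping groups. Uqcrq was no longer called without Vehicle 1 (0.0603), AG636 1 (0.0541) or AG636 3 (0.0900), and Uqcr10 without any 1 of the mice except Vehicle 3 (adjusted p from 0.0588 to 0.0804).

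In complex V the nuclear gene that fell, beside mt-Atp6 and mt-Atp8, was Atp5g1 (ENSMUSG00000006057, chr11:96068852-96075670), 1 of the 3 genes that encode the same mature subunit c of the rotating ring. It was at 364, 351 and 276 CPM with vehicle and 204, 189 and 177 with AG636. All treated mice lay below all controls. The log2 fold change was -0.80 (SE 0.13, adjusted p = 0.00530), and the call was kept with each mouse left out. The other genes of subunit c, Atp5g2 and Atp5g3, had log2 fold changes of -0.25 (SE 0.25, adjusted p = 0.489) and -0.24 (SE 0.14, adjusted p = 0.240) with overlapping groups. Within libraries, counts of Atp5g1 over those of Atp5g3 were 0.306, 0.372 and 0.252 with vehicle and 0.212, 0.184 and 0.234 with AG636, again without overlap. The catalytic subunit gene Atp5b went from 980, 779 and 900 CPM to 736, 754 and 620, apart but not past the threshold (adjusted p = 0.0792), and its partner Atp5a1 had a log2 fold change of -0.03.

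Complex I had 4 nuclear genes that fell, beside mt-Nd4 and mt-Nd5. Ndufa5, an accessory subunit of the peripheral arm, was at 217, 206 and 159 CPM with vehicle and 139, 124 and 115 with AG636 (log2 fold change -0.62, SE 0.14, adjusted p = 0.0165). Ndufs7, which carries the iron-sulfur cluster next to the ubiquinone site, went from 160, 154 and 137 to 112, 94.9 and 112 (-0.50, SE 0.13, adjusted p = 0.0210). Ndufs6, a zinc-binding accessory subunit, went from 203, 216 and 195 to 161, 146 and 138 (-0.47, SE 0.11, adjusted p = 0.0203). In all of these the treated mice lay below the controls. Ndufa10, an accessory subunit of the membrane arm, went from 330, 279 and 273 to 231, 235 and 209 (-0.39, SE 0.12, adjusted p = 0.0449). Ndufs6 overlaps Mrpl36 on the opposite strand. Without Vehicle 2 or AG636 3, Ndufa5 (0.0594 and 0.0663) and Ndufs6 (0.0642 and 0.0804) lost their calls. Ndufs7 lost it without Vehicle 1, Vehicle 2, AG636 1 or AG636 3 (adjusted p from 0.0519 to 0.0660), and Ndufa10 without any 1 of the mice except Vehicle 3 (0.0569 to 0.149).

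**Figure D5:**
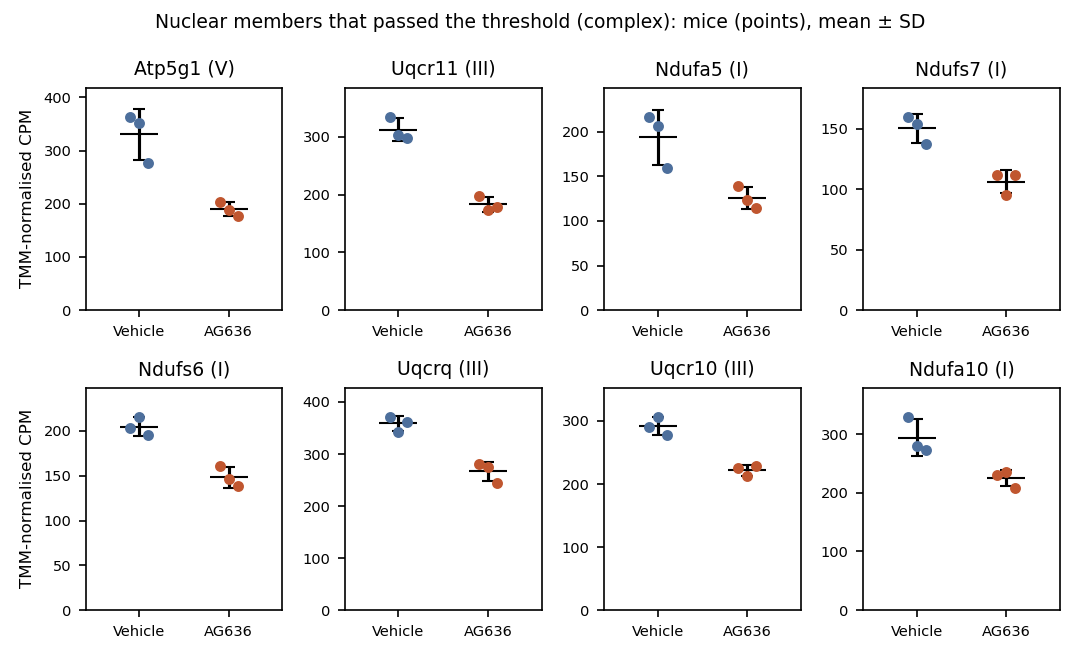
Normalised CPM (y axes, from 0) of the 8 nuclear members that passed the threshold, with the complex in brackets, in the 3 vehicle and 3 AG636 mice (points) with the mean ± SD. In every panel the 3 AG636 mice lie below the 3 vehicle mice.

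Higher levels without overlap were seen in 3 nuclear members, none past the threshold. The complex I membrane subunit Ndufb11 was at 219, 231 and 227 CPM with vehicle and 284, 257 and 284 with AG636 (log2 fold change 0.28, SE 0.11, adjusted p = 0.0813), and it was called higher with library size alone (adjusted p = 0.0347) and after length and GC trends were removed (0.0448). Ndufa13, a membrane-arm subunit, was at 211, 239 and 233 and at 295, 243 and 280 (0.26, SE 0.12, adjusted p = 0.138). Cox7a2l was at 305, 336 and 354 and at 376, 389 and 467 (0.31, SE 0.12, adjusted p = 0.0970). The study names Ndufb11, with Ndufs1 and Sdhd, among genes lowered by AG636 only where CDK5 was knocked out, in the human AML line MOLM13. That setting is unlike the mouse cells examined here. Ndufs1, the largest iron-sulfur subunit of complex I, was at 142, 119 and 105 CPM and at 112, 99.6 and 83.8 (-0.31, SE 0.16, adjusted p = 0.177), with overlapping groups, and it overlaps Eef1b2, which had 51830 counts to its 3663, on the opposite strand. Sdhd, a membrane anchor of complex II, was at 13, 7.85 and 6.48 and at 12.1, 15.9 and 5.10 (0.27, SE 0.40, adjusted p = 0.663).

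In complex II, the one without mitochondrially encoded subunits, no gene passed the test. Sdha, its flavin subunit, was at 267 to 280 CPM with vehicle and 242 to 282 with AG636, and Sdhb, its iron-sulfur subunit, at 291 to 331 and 283 to 291. The log2 fold changes of Sdha, Sdhb and Sdhc were -0.05 (SE 0.11), -0.13 (SE 0.11) and -0.04 (SE 0.16).

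In complex IV, tissue isoforms differed in whether they had enough counts to test. Cox4i1, Cox6a1, Cox6b1, Cox7a2, Cox7b and Cox8a were tested, while Cox4i2, Cox6a2 and Cox7a1 had 41, 5 and 48 counts over all samples, and Cox7b2, Cox8b and Cox8c had 0, as did Ndufa4l2 of complex I and a second Atp5o entry of complex V. A total of 0 allows up to 3 counts, or 0.392 to 0.637 CPM in a sample, and covers counting error only. Cox6b2, known as the testis form, was an exception at 100, 63.2 and 25.1 CPM with vehicle and 31.2, 46.0 and 16.2 with AG636. Its log2 fold change was -1.02 (SE 0.46), but the mice spread widely, the groups overlapped and the adjusted p was 0.134. Cox6b1 had a log2 fold change of -0.08 (SE 0.11). The abundant Cox6c, Cox8a and Cox4i1 had 0.10, -0.08 and -0.28, with adjusted p of 0.529, 0.627 and 0.131.

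Calls among nuclear members thinned when mice were left out. The count of 8 became 4, 3 and 12 without Vehicle 1, 2 and 3, and 4, 7 and 2 without AG636 1, 2 and 3, while all genes called lower went to 6.18%, 6.10% and 11.3%, and to 5.54%, 10.3% and 4.03%. Those called higher went to 4.62%, 4.41% and 8.86%, and to 5.32%, 9.47% and 3.56%. Among mitochondrially encoded members the count of 5 became 2, 2 and 5, and 2, 4 and 1. Uqcr11, Atp5g1 and mt-Cytb were called in every one of these sets. At an adjusted p under 0.01, 2 nuclear and 1 mitochondrially encoded members were lower and 0 higher, beside 2.93% and 2.08% of all genes. Without a filter on low counts 13 nuclear members were lower, beside 7.58% of all genes lower and 7.19% higher. With library size alone 6 were lower and 1 higher, beside 8.23% and 13.4%, and with length and GC trends removed 1 was higher, beside 11.9% of all genes lower and 9.83% higher. With the replicate number as a block 7 were lower and 0 higher, beside 9.43% and 8.24%.

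Promoters of the nuclear members were searched for short words of factors known for mitochondrial genes. RefSeq promoters on GRCm38.p6, from 250 bases before to 50 after a start, were matched for 68 of 85 symbols. The words were ATGGCGGC for YY1, GCGCATGC for NRF1 and CCGGAAG for the ETS family, which includes GABPA, on both strands. Since the NRF1 word is nearly palindromic, matches on both strands can overlap by all but 2 bases. At least 1 word was held by 6 members for YY1 (8.8%), 10 for NRF1 (14.7%) and 16 for ETS (23.5%). Among tested genes with a promoter the shares were 6.3%, 6.5% and 22.6%, and among all promoters given there they were 2.6%, 3.0% and 9.9%. Of the 8 members that fell, 7 had a promoter, and 3 of these held a word. The share of all tested genes with any of the words was not counted, so this count has no background. By word, 2 of the 7 held that of YY1 (28.6%), 1 that of NRF1 (14.3%) and 1 that of ETS (14.3%). Among tested genes these shares were 6.3%, 6.5% and 22.6%. The 3 promoters are printed because they belong to genes that fell, with the words in capitals. The YY1 word begins 27 bases after the start in Ndufs7 and 36 after it in Ndufs6, and in Uqcr11 the ETS word begins 66 bases and the NRF1 word 4 bases before the start. A match is a description of letters, not of binding. The mRNAs of Yy1, Nrf1 and Gabpa themselves had log2 fold changes of -0.07, -0.17 and -0.19 with adjusted p of 0.659, 0.405 and 0.607.
Ndufs7, chr10:80249199-80249498 (+): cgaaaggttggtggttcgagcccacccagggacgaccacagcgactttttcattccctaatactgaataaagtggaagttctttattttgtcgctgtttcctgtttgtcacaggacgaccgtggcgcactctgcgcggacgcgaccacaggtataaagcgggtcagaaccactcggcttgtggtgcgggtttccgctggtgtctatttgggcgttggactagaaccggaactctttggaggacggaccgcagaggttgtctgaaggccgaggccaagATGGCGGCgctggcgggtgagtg
Ndufs6, chr13:73328433-73328732 (-): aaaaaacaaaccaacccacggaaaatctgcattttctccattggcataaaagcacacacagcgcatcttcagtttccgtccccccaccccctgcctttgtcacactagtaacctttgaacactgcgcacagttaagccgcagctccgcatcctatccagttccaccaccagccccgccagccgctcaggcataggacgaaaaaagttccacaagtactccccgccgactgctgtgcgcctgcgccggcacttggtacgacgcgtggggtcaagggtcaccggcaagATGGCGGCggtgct
Uqcr11, chr10:80406772-80407071 (-): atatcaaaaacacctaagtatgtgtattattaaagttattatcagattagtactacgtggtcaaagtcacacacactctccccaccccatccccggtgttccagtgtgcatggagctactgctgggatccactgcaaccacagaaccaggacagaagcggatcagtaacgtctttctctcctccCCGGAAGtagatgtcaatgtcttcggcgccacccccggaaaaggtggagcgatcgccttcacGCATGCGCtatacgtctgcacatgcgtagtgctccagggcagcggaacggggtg

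Lists of genes that make and serve the complexes were read in the same fit. Of 27 tested genes of mitochondrial transcription and RNA handling, 8 fell (29.6%, beside 11.0% of all genes tested) and 1 rose (3.7%, beside 10.3%), with a median of -0.42. Lrpprc, which binds and stabilises mitochondrial mRNAs, went from 115, 110 and 77.7 CPM to 59.7, 53.8 and 38.7 (log2 fold change -1.0, SE 0.20, adjusted p = 0.00996). Fastkd2, a protein of mitochondrial RNA granules, fell by 1.05 (SE 0.18, adjusted p = 0.00539), and Elac2, the nuclease that cuts the 3′ side of tRNAs, by 0.75 (SE 0.15, adjusted p = 0.00971). These calls were kept with each mouse left out. Supv3l1, a helicase of mitochondrial RNA decay, fell by 0.72 and Tbrg4, a relative of Fastkd2, by 0.84. Mterf1a, of the termination factor family, rose by 0.83 (SE 0.25, adjusted p = 0.0402). Its call was lost with each mouse left out (adjusted p from 0.0811 to 0.123) and under DESeq2 (0.0762). It was also lost in edgeR without a filter on low counts (0.0822) and with the replicate block (0.0656). The polymerase Polrmt and the activators Tfam and Tfb2m had log2 fold changes of -0.23, -0.32 and -0.14 without passing.

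Assembly factors that passed the test were all lower. For complex I, 4 of 17 fell (23.5%, beside 11.0% of all genes): Ecsit by 0.92, Ndufaf6 by 0.78, Ndufaf4 by 0.73 and Ndufaf1 by 0.71 on the log2 scale. For complex IV, 5 of 23 fell (21.7%), among them Coa7 by 0.90 (adjusted p = 0.0103) and Coa3 by 0.63 (adjusted p = 0.0140), along with the copper-handling Sco2 by 0.88 and Cox19 by 0.61, and Taco1, the translation activator of mt-Co1, by 1.25 from a low level. The call of Taco1 was lost under DESeq2 (adjusted p = 0.0541), limma-voom (0.0808), library size alone (0.0588), the replicate block (0.0789) and with length and GC trends removed (0.058). For complex III 1 of 6 fell (16.7%), Lyrm7, at 3.13 to 3.92 CPM with vehicle and 0.825 to 1.70 with AG636, and this call was lost under DESeq2 (adjusted p = 0.0618) and the replicate block (0.0531). No assembly factor of complex II (4 tested) or of complex V (5 tested) was called, with 1 of each lower at an unadjusted p under 0.05 and 0 called by DESeq2 and limma-voom.

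Carriers and channels that feed ATP synthesis, listed together with Cycs, Ndufab1 and Atpif1, included 5 that fell of 9 tested (55.6%, beside 11.0% of all genes). Their median was -0.44. Slc25a4 (adjusted p = 0.399, edgeR), Slc25a5 (0.0775), Atpif1 and Vdac3 did not pass. Slc25a3, which brings phosphate to complex V, went from 852, 812 and 826 CPM to 617, 629 and 572 (log2 fold change -0.45, SE 0.10, adjusted p = 0.0132). Cycs, the somatic cytochrome c, fell by 0.49 (adjusted p = 0.0441), and Ndufab1, the acyl carrier protein that is also part of complex I, by 0.42 (0.0343). The outer membrane channels Vdac1 and Vdac2 fell by 0.44 (0.0449) and 0.45 (0.0210). With each mouse left out in turn, the calls of Cycs and Ndufab1 were lost in 5 sets and those of Vdac1 and Vdac2 in 4. Of 20 genes of the TCA cycle and pyruvate entry, Dlat fell and Mpc2, a subunit of the pyruvate carrier, rose by 0.52 (adjusted p = 0.0221). Of 21 genes of ubiquinone synthesis and of enzymes that reduce ubiquinone, Pdss2 and Dhodh fell and Coq8a rose by 1.44 (adjusted p = 0.0140). Dhodh, whose protein is the drug's target, was at 62.4, 49.4 and 55.6 CPM with vehicle and 35.0, 28.3 and 31.7 with AG636 (-0.82, SE 0.16, adjusted p = 0.00880). Of 10 genes of mitochondrial DNA replication the helicase Twnk fell, and of 9 regulators Pprc1 fell. The shares that fell in the last 4 lists were 5.0%, 9.52%, 10% and 11.1%, near or below that of all genes.

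Over all these lists 151 genes were tested, 28 fell (18.5%, beside 11.0% of all genes) and 3 rose (1.99%, beside 10.3%). The 28 became 12, 15 and 28 without Vehicle 1, 2 and 3, and 13, 24 and 8 without AG636 1, 2 and 3, while the share of all genes called lower was 6.18%, 6.10% and 11.3%, and 5.54%, 10.3% and 4.03%. The rule for named genes took at most 5 of a list in each direction, which also gave 28 genes, those that rose included. Of these, the ones called in every set were Lrpprc, Fastkd2, Elac2, Coa7 and Dhodh. The other 23 lost the call in at least 1 set, 20 of them without AG636 3, with adjusted p up to 0.172.

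Other large families were set beside the nuclear subunits. Of 77 tested mitochondrial ribosomal protein genes 32 were lower (41.6%) and 0 higher, with a median of -0.41, and of 80 cytosolic ribosomal protein genes 27 were lower (33.8%), with a median of -0.32. The nuclear members had 10.3% and -0.13. These families share the same 6 libraries and the difference between them was not tested.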

How the data were processed

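RNA of sorted I1DN cells from 3 vehicle and 3 AG636 mice was measured, grouped by the submitters' labels. The authors deposited raw counts of reads per gene. Per the submitters' processing notes, cutadapt 1.9.1, HISAT2 2.0.4 and featureCounts of Subread 1.5.0-p3 were used with GRCm38 (mm10); the study's methods give other versions of cutadapt and Subread. The annotation release, strand use and handling of reads with several matches are not given in the sources used here. Reads that match nuclear copies of mitochondrial genes, or genes on the other strand, can move counts between them.

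Symbols came from GENCODE M21 for 54809 of 54838 identifiers. The gene span was identical to that of the deposited exons for 98.7% of them. Symbols that match but are not protein coding, 12 in all, were left out. No column of per-sample values was left unused. The members and lists were chosen with earlier results of these data known.

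Counts were tested in R 4.3.3 with edgeR 4.0.16 (glmQLFit and glmQLFTest, TMM, filterByExpr set to 10 counts and a total of 15), with Benjamini-Hochberg adjustment over all 11092 genes tested and a threshold of 0.05. CPM use TMM-scaled library sizes. The SE is the log2 fold change over the root of F, with a median of 0.20 over all genes. Replicates of a group differed by a chi-square of 6.67 to 15.9 per degree of freedom, so none was counted once for 2. The floor of 3 counts is 0.392 to 0.637 CPM, which covers counting error only. A 3 against 3 exact permutation test cannot go below p = 0.1, so single values were not tested that way.

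Alternatives were DESeq2 1.42.0, limma-voom (limma 3.58.1), size factors by median of ratios, library size alone, mitochondrial genes out of library sizes, a replicate block, filters that kept all genes or those with 10 or more counts in each sample, loess trends (span 0.5) on length and on GC of the last 500 bases removed, an adjusted p under 0.01 and leaving out each mouse. The script was tested on simulated data. Named genes were all mitochondrially encoded members, the nuclear members past the threshold, the 3 of each complex with the highest CPM (4 of complex II), paralogue families, Ndufs1, Ndufb11, Sdhd, Dhodh and, of each list, at most 5 genes past the threshold per direction. Cyc1, Ndufa13, the rRNAs and tRNAs, Polrmt, Tfam, Tfb2m and the factors of the searched words were added after their values were seen.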

Additional observations from a re-analysis of the deposited data

How the results depend on the processing

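Of the 46 tested members named by rule, over alternatives other than leaving out a mouse, 392 values kept direction and call, 7 lost the call, 6 gained it and 9 changed sign. The 8 nuclear members called lower became 13 with no filter and 2 at an adjusted p under 0.01, and 2 to 12 with mice left out. The 0 called higher became 1, Ndufb11, with library size alone and 1 after length and GC trends were removed. With no filter mt-Nd2 was called lower as well (log2 fold change -0.4, adjusted p = 0.0167, edgeR). The 5 mitochondrially encoded members called lower became 1 at an adjusted p under 0.01 and 1 to 5 with mice left out, and the 1 called higher became 0 and 0 to 1. The 28 genes of the pathway lists called lower became 4 and 8 to 28, and the 3 called higher became 0 and 0 to 2. Library size alone, under which the median of all genes was 0.12 in place of 0.03, moved the median of nuclear members to -0.04 and those of complexes I to V to -0.02, 0.04, -0.17, 0.00 and -0.13. With mice left out the medians of complexes I, III, IV and V ranged from -0.18 to -0.06, -0.34 to -0.16, -0.17 to -0.07 and -0.25 to -0.14. Signs changed in genes near 0: with library size alone mt-Co2 (0.03), Ndufa6 (0.02), Sdha (0.04), Sdhc (0.05), Cox8a (0.01), Atp5a1 (0.06) and Cox6b1 (0.01), with limma-voom mt-Co2 (0.06) and with no filter Uqcrh (-0.01). With mice left out, mt-Nd1 ranged over -0.29 to 0.05, mt-Co2 over -0.34 to 0.21, Sdha over -0.11 to 0.01, Sdhc over -0.23 to 0.04, Sdhd over -0.10 to 0.62, Uqcrh over -0.04 to 0.07 and Atp5a1 over -0.09 to 0.03. The cause of these moves was not tested, and sets with a mouse left out hold fewer samples.

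Replicate numbers recur in both groups, and no source says that a number marks a shared batch or donor. Deviations of same-numbered samples correlated at -0.057, -0.178 and 0.224, and not every sample correlated best with its own number, so the numbers were not taken to pair them. With the replicate number as a block 7 nuclear members were lower and 0 higher, and 4 mitochondrially encoded members were lower and 1 higher. The calls of Ndufa10, Uqcr10 and mt-Atp6 were lost (adjusted p = 0.0571, 0.0509 and 0.0626, edgeR) and Cox6b2 was gained. Counts of mt-Nd3, mt-Nd4l and several tissue isoforms of complex IV were too few to test. With library size alone 4 mitochondrially encoded members were lower, without mt-Nd5.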

Other observations

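Small RNAs of the stretch between mt-Nd1 and mt-Nd2 gave further values, noticed after the data were seen. The 3 tRNA genes given were picked there, and values of the other mitochondrial tRNA genes, such as mt-Tw, are not given. The tRNA gene mt-Tm, just ahead of mt-Nd2 on the heavy strand, was at 18.5, 20 and 15.7 CPM with vehicle and 77.7, 37.5 and 59.3 with AG636 (log2 fold change 1.68, SE 0.25, adjusted p = 0.00407, edgeR). The tRNA gene mt-Ti, just after mt-Nd1, was at 8.02, 5.36 and 6.69 and at 21.5, 11.3 and 13 (1.20, SE 0.30, adjusted p = 0.0210). Between them lies mt-Tq, on the light strand, which went the other way, from 49.0, 68.1 and 35.5 to 20, 10.5 and 18.1 (-1.66, SE 0.29, adjusted p = 0.00593). The groups did not overlap in any of the 3. The ends of mt-Nd1, mt-Ti and mt-Tq overlap by a few bases. Reads counted to a tRNA gene in such libraries need not come from the mature tRNA, and the use of strand in counting is not stated in the sources used here.

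Cox6b2 varied more among mice of a group than the other nuclear and mitochondrially encoded complex IV genes that were tested (SD over mean CPM). Its count over that of Cox6b1 was 0.229, 0.171 and 0.0628 with vehicle and 0.0809, 0.120 and 0.0439 with AG636. Erythroid markers, summed over 8 genes, were at 4942, 3204 and 1822 CPM and at 2504, 3478 and 1981 in the same mice, and the order of the mice within each group was the same for both values. The relation was not tested.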
